A study of Mus musculus with 24 samples.

Results

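Retained introns are stretches that most transcripts of a gene lose by splicing but that stay in some of its mature RNA. A retained intron often holds a stop codon or shifts the reading frame, and transcripts that keep one are commonly held in the nucleus or destroyed by nonsense-mediated decay on the ribosome. In brain the process is known for tuning the level of neuronal genes and for keeping a store of unspliced transcripts. CELF6 belongs to the CELF family of RNA-binding proteins, some of whose members regulate splicing.

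The members described here are all 1703 events of the retained intron type among the 8935 splicing events in the authors' deposited tables, chosen by event type alone. They carry 1212 gene symbols, and 54 have none. Many share sequence, since 404 of the introns overlap another event and only 1666 are distinct. PSI (percent spliced in, given as a fraction) was estimated by the authors with the program MISO for each library. The tables state that a PSI of 1 is the second isoform without saying which that is for a retained intron. The direction was therefore read from the data (below), and PSI is taken as the share of transcripts that keep the intron.

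The groups were KO TRAP (5 libraries), WT TRAP (5), KO input (5) and WT input (3), from Celf6 knockout and wild-type mouse brains at postnatal day 9. The tissue lay just behind the thalamus, with the cortex removed. Input is total RNA, and TRAP (translating ribosome affinity purification) is RNA on the tagged ribosomes of serotonin cells, so both genotypes carry the allele that tags those ribosomes. Input thus holds RNA of all cell types and of the nucleus, while TRAP is drawn from 1 cell type and from ribosomes, and these differences cannot be told apart. The labels give no strain and do not say which part of Celf6 is deleted.

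The libraries held 3390423 to 11205985 counts and a PSI for 573 to 875 retained introns each. The highest total belongs to WT input 2/3, the sum of 2 samples as alike as repeat runs (a per-gene chi-square of 1.34, where the 35 other same-group pairs had 24.7 to 90.3). Celf6 had 21.4 to 114 CPM (counts scaled to equal library size) in KO TRAP and 84.8 to 186 CPM in WT TRAP, and 4.78 to 22.2 CPM in KO input and 15.5 to 103 CPM in WT input. The genotypes overlapped in both kinds of RNA. Of all 14261 genes tested, 2.71% were higher and 2.43% lower in TRAP (edgeR, adjusted p below 0.05). The serotonergic list was higher in TRAP in 14 of 16 genes tested, with a summed level of 5310 to 12438 CPM in TRAP and 254 to 388 CPM in input. Oligodendrocyte genes summed to 1539 to 7531 CPM in TRAP and 6171 to 15058 CPM in input, with 6 of 14 lower in TRAP, and astrocyte genes to 636 to 1448 CPM in TRAP and 1308 to 2590 CPM in input, with 5 of 12 lower. Their part in the intron results was not tested. The 16 serotonergic marker genes and Celf6 itself held 0 retained intron events.

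The edges of a few introns could be read from RefSeq's promoter sequences (GRCm38.p6), and they are shown because they check where the introns begin and end. The first 2 are 5′ splice sites of overlapping Hmgn3 introns that begin at different bases, with 3 exon bases, the first intron bases GT in capitals and 4 further intron bases. Hmgn3 encodes a nucleosome-binding protein. The other lines are the 5′ splice site of a Zfp169 intron, both ends of a Ube2m intron and the 3′ splice site of a Cttnbp2nl intron, with the last intron bases AG in capitals and 3 exon bases after them.
Hmgn3, intron of 563 bases, chr9:83110987-83110995, minus strand: gagGTactt
Hmgn3, intron of 604 bases, chr9:83111028-83111036, minus strand: aagGTactg
Zfp169, chr13:48491350-48491358, minus strand: ccgGTatcc
Ube2m, chr7:13038064-13038072, minus strand: cctGTaaag
Ube2m, chr7:13037703-13037725, minus strand: tcaagctgttctcgctgaAGcag
Cttnbp2nl, chr3:105008053-105008075, minus strand: tgctttaaaatcctttacAGgtg

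The mean PSI over the libraries with a value was 0.123 for the 563-base Hmgn3 intron and 0.0736 for the 604-base one. It was 0.292 for Zfp169, 0.945 for Ube2m, which encodes an enzyme of NEDD8 conjugation, and 0.0313 for Cttnbp2nl. GT and AG therefore stood at the edges of the Ube2m intron, which was nearly always kept in the 4 libraries with a value. AG also stood at the end of the Cttnbp2nl intron, which was nearly always removed, and GT at the starts of the mostly removed Hmgn3 introns.

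Most introns were kept in few transcripts. The median of the mean PSI was 0.0477 over the 1703 introns, with quartiles of 0.0311 and 0.0814. A PSI of at most 0.1 was found for 1333 introns (78.3%) and one above 0.9 for 183 (10.7%), with 133 between 0.1 and 0.5 and 54 between 0.5 and 0.9. Among the values the authors kept, introns thus fell at the 2 ends of the scale far more often than between them. Only estimates with a narrow credible interval were kept, and whether this removed more values from the middle was not tested. Of the 375 introns with a value in at least 15 libraries, 332 had a PSI of at most 0.1 and 20 one above 0.9. Another 15 of the 375 lay between 0.1 and 0.5, and 8 between 0.5 and 0.9.

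Where an intron stood on this scale followed how the gene models used for counting describe it. For 1197 introns the splice junction is annotated and the intron does not lie inside an exon, and their median PSI was 0.0408, with 2.26% above 0.5. For 300 introns the sequence lies wholly inside an annotated exon and the junction is not annotated, and their median PSI was 0.859, with 62.3% above 0.5. The 205 introns with neither feature had a median of 0.0598. Introns written as exon had a high PSI and introns written as spliced had a low one, which is the ground for reading PSI as the share that keeps the intron.

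**Figure D1:**
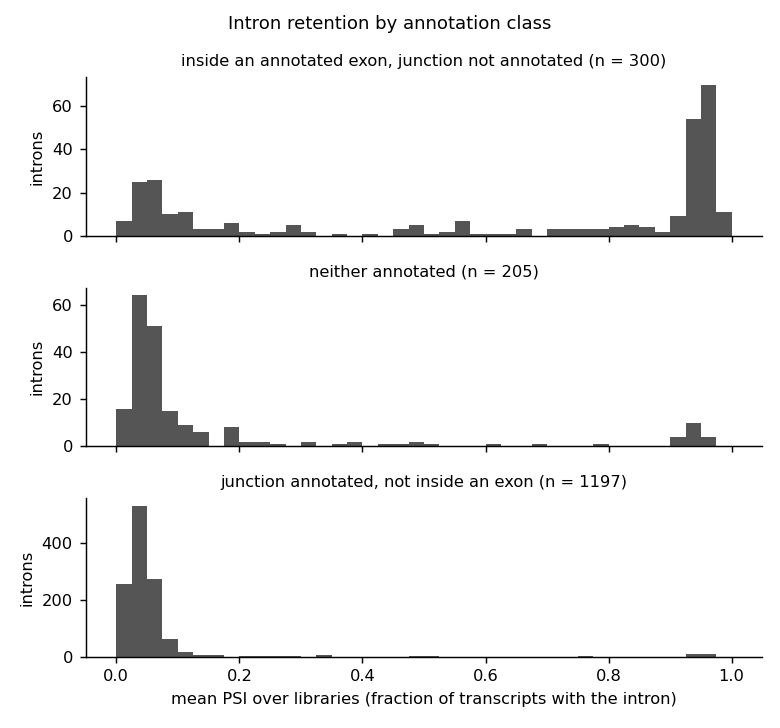
Histograms of the mean PSI over libraries (x axis, a fraction) for introns in 3 annotation classes (y axis, number of introns). The 300 introns inside an annotated exon have a median of 0.859 and the 1197 with an annotated junction a median of 0.0408.

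Place in the gene followed the same split. Where the downstream part of the event reached the end of the gene (180 introns), the median PSI was 0.163 and 38.9% were above 0.5, against 0.0450 and 9.29% for the 1389 that did not reach it. The 551 introns of a length divisible by 3 (32.4%), whose retention adds no shift of frame by length, had a median PSI of 0.0504, and the other 1152 had 0.0470.

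Median PSI fell with intron length, except in the longest class. The median length was 378 bases, from 11 to 8856. Median PSI was 0.0634 for the 242 introns of up to 100 bases and 0.0370 for the 285 in the next-to-longest of 6 length classes. Among the 1466 introns with a mean PSI of at most 0.5, Spearman's rho between length and PSI was -0.35. This is a description across introns of the same libraries, and length and read coverage also enter how PSI is estimated.

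**Figure D2:**
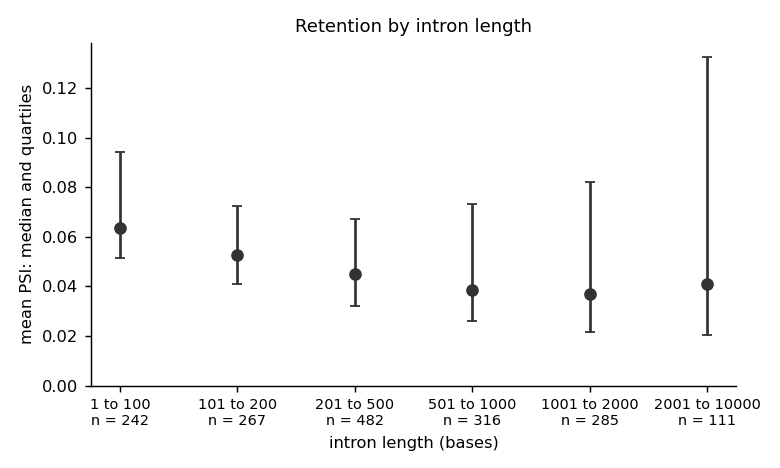
Median and quartiles (bars) of the mean PSI (y axis) of introns in 6 length classes (x axis, bases). The median is 0.0634 for the shortest class, 0.0370 for the next-to-longest and 0.0412 for the longest.

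The highest and lowest levels were taken among the 375 introns with a value in at least 15 libraries. Near 0 and 1 the scale itself keeps an SD small. Tardbp, which encodes the RNA-binding protein TDP-43, had the highest PSI, 0.993 ± 0.00582 (SD, n = 18 libraries), for an intron of 721 bases at chr4:148616845-148617565 (mm10, minus strand) that lies inside an annotated exon at the end of the gene. Bsg, which encodes the surface protein basigin, followed among named genes with 0.983 ± 0.00888 (n = 18). Tmem9, Chtop (a protein of mRNA export), Camk2b (a calcium/calmodulin-dependent kinase subunit), Klhl22 and Setd5 lay between 0.968 and 0.979. An intron without a symbol stood at 0.992. All of the introns named here lie inside an annotated exon.

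At the low end the SD was about as large as the mean for several introns. Myl12a, a myosin light chain gene, had a PSI of 0.00177 ± 0.00156 (n = 18), and Eef1a1, which encodes a translation elongation factor, had 0.00272 ± 0.00145 (n = 18). Map1lc3b, Stk25 and Tspan7 had 0.00388, 0.00443 and 0.00459, and Tspan7 ran from 0.000764 to 0.0209 over the libraries. All 5 are introns with an annotated junction outside exons.

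Some introns hold the gene of a small RNA. RefSeq places a snoRNA gene inside 27 of the introns and a miRNA gene inside 5, and these introns were looked at after their values were seen. Mature miRNAs of 3 hosts are shown with the seed (bases 2 to 8) in capitals, since a kept intron also keeps the miRNA's sequence in the host RNA, and none of the 3 shares a seed with another.
mmu-miR-7115-3p, in an Arrb2 intron, chr11:70438297-70438318, plus strand: aCUUGGUCcccugcccccacag
mmu-miR-1249-3p, in a 5031439G07Rik intron, chr15:84951545-84951566, minus strand: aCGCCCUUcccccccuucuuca
mmu-miR-3101-3p, in a Rab4b intron, chr7:27176020-27176040, minus strand: uAGCUUUGguggauggucuuu

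The mean PSI was 0.0502 for the Arrb2 intron, 0.0401 for the 5031439G07Rik intron and 0.0310 for the Rab4b intron. The introns with a snoRNA gene had a median PSI of 0.0386, against 0.0479 for the 1671 with no small RNA gene inside.

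Ribosome-bound RNA of serotonin cells was compared with total RNA to see whether introns are kept at different rates. No retained intron passed the threshold (limma on log2(PSI/(1-PSI)), Benjamini-Hochberg adjusted p below 0.05 over all splicing events). The count was 0 of 749 tested, and it was 0 of 2621 for all splicing events (0%). At an unadjusted p below 0.05, 23 retained introns were higher in TRAP and 47 lower, which is 3.07% and 6.28%, against 4.39% and 5.84% of all splicing events (10.2% in either direction). The median difference was -0.10 in log2 odds, against -0.03 over all events. With each library's median log2 odds over the 221 retained introns with a value in every library removed, a setting chosen after seeing the data, the split turned round to 50 higher and 20 lower, and the median was 0.13 for retained introns and 0.21 over all events. Directions in TRAP against input are given without that centring. The introns of Becn1, Eif4a2 (239 bases), Gas5 (435 bases), Hmgn2, Ank1, Adrm1 and Tnrc6c described below kept their signs under it.

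The sign of that median rested on 2 input libraries. The median PSI per library was 0.0322 to 0.0387 in TRAP and 0.0307 to 0.0491 in input, and the 2 highest were WT input 2/3 (0.0491) and KO input 2 (0.0471). The other 6 input libraries lay between 0.0307 and 0.0358. Without these 2 libraries, a setting chosen after seeing the data, the median difference was 0.0010, with 27 introns higher and 31 lower at an unadjusted p below 0.05 and 2 lower past the adjusted threshold. In sequencing run 1 alone it was -0.19, and in run 2 alone, which holds neither library, 0.04.

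**Figure D3:**
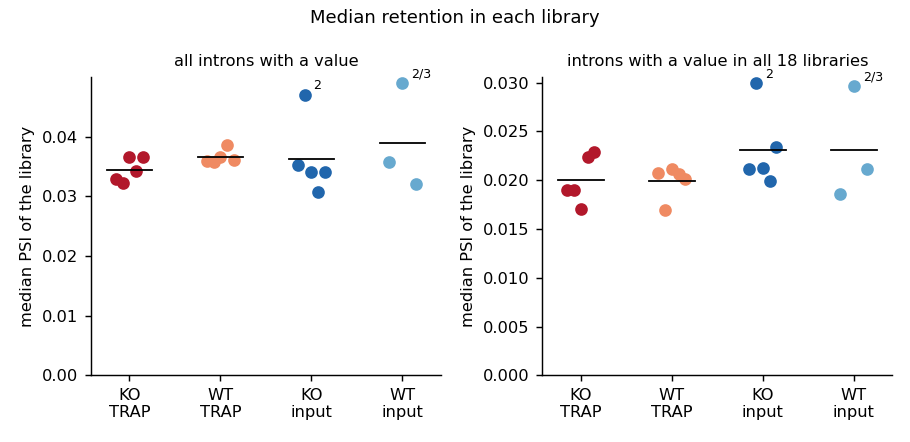
Median PSI of retained introns in each library (points) and the mean of each group (lines), over all introns with a value (left) and over the 221 with a value in all 18 libraries (right). KO input 2 and WT input 2/3 stand above every other library in both panels.

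Level in TRAP followed level in input across introns. Spearman's rho between the mean PSI of the 2 kinds of RNA was 0.83 over the 749 introns, whose points share libraries. The median absolute difference was 0.00906, and only 39 introns differed by more than 0.1, of which 16 were higher and 23 lower in TRAP.

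The smallest p belonged to Becn1, which encodes the autophagy protein beclin 1. Its intron of 513 bases at chr11:101289926-101290438 (mm10, minus strand) had a PSI of 0.0117, 0.0142, 0.0260 and 0.0270 in KO TRAP and 0.0217, 0.00459, 0.0177, 0.0146 and 0.0356 in WT TRAP, against 0.0826, 0.0302, 0.0372 and 0.0800 in KO input and 0.0597 and 0.0461 in WT input. Only the highest WT TRAP library overlapped the lowest input library. The difference was -1.81 ± 0.30 in log2 odds (SE, adjusted p = 0.0632, limma), and it passed the threshold without KO input 2 or without WT TRAP 1. The level of Becn1 itself was higher in TRAP by 1.11 ± 0.31 (log2 fold change ± SE, edgeR, adjusted p = 0.0348).

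An intron of Eif4a2, which encodes an RNA helicase of translation initiation, came next. Its PSI ran from 0.00919 through a median of 0.0199 to 0.0324 in the 10 TRAP libraries, and from 0.0222 through 0.0494 to 0.128 in the 8 input libraries. The groups overlapped, and the 3 highest input values came from the 3 libraries of run 2. The difference was -1.65 ± 0.35 (adjusted p = 0.105, limma), with a difference in mean PSI of -0.0146 in run 1 and -0.0938 in run 2. This intron of 239 bases at chr16:23111264-23111502 (plus strand) holds a snoRNA gene. Another snoRNA-bearing Eif4a2 intron, of 402 bases, averaged 0.0181 ± 0.00742 in TRAP (SD, n = 10) and 0.0124 ± 0.00602 in input (n = 8).

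Gas5, a noncoding RNA whose introns carry snoRNAs, had 10 retained intron events, of which 8 could be tested. All 8 estimates were below 0 in TRAP against input, 2 of them at an unadjusted p below 0.05, and 2 of the 8 share an intron. Of all 749 retained introns, 441 were below 0 and 6.28% were lower at that p. The Gas5 estimates nearest to 0 were -0.08, -0.11 and -0.18, less than the shift of the overall median under the centring described above. The 435-base intron at chr1:161036853-161037287 (plus strand) had a PSI of 0.0220 to 0.0970 in TRAP, median 0.0623 (n = 9), and of 0.0880 to 0.170 in input, median 0.123 (n = 8). The ranges overlapped only in the top of the TRAP values, and the difference was -1.21 ± 0.30 (adjusted p = 0.236, limma). The Gas5 introns were read together after their values were seen.

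Hmgn2, which encodes a nucleosome-binding protein, had a PSI of 0.0148 ± 0.00462 in TRAP (n = 10) and 0.0295 ± 0.0109 in input (n = 7), and Ank1, which encodes an ankyrin of the membrane skeleton, had 0.967 ± 0.00989 in TRAP (n = 6) and 0.984 ± 0.00977 in input (n = 8). Both groups overlapped in each gene, and the adjusted p was 0.252 for both (limma). Few reads were counted for Hmgn2, with a mean of 1.91 CPM in TRAP and 1.23 CPM in input, and how its PSI relates to them was not tested. The level of Ank1 was lower in TRAP by a log2 fold change of -1.09 ± 0.21 (edgeR, adjusted p = 0.00151).

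Of the 5 introns named for the smallest p among those with a higher value in TRAP, that of Adrm1, which encodes a ubiquitin receptor of the proteasome, had the most libraries. Its PSI was 0.0132 to 0.0281 in 8 TRAP libraries, median 0.0201, and 0.00822 to 0.0176 in 7 input libraries, median 0.0126. The groups overlapped, and the difference was 0.67 ± 0.20 (adjusted p = 0.266, limma). Tnrc6c, a gene of miRNA-guided silencing, had 0.0692, 0.0515 and 0.0436 in 3 TRAP libraries and 0.0195, 0.0173 and 0.0119 in 3 input libraries, with no overlap, and the smallest p an exact permutation test can give with 3 against 3 is 0.1. Without overlap, 0.534% of retained introns and 0.801% of all events were higher in TRAP. Mpnd, Mboat7, which encodes an acyltransferase of phosphatidylinositol, and an event without a symbol made up the 5, with adjusted p from 0.289 to 0.359 (limma).

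**Figure D4:**
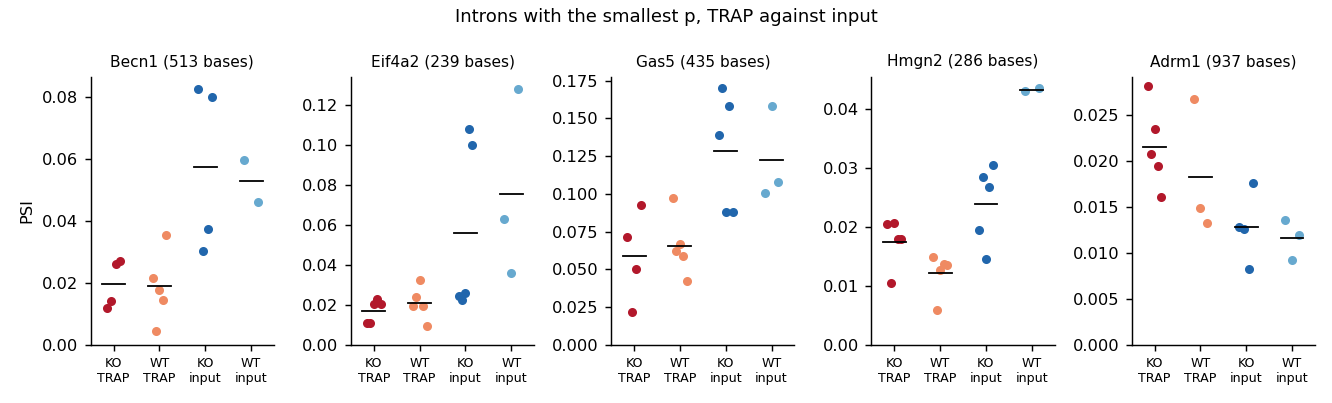
PSI (y axis) of 5 introns in each library (points) of the 4 groups, with group means (lines). Becn1, Eif4a2, Gas5 and Hmgn2 have lower means in TRAP than in input and Adrm1 a higher one, and no difference passed the adjusted threshold.

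Introns in genes of the splicing machinery itself were counted by list, because several such genes are known to control their own level through retained or poison sequences. SR protein and splicing kinase genes held 11 events (7 tested, median difference -0.05, 0 at an unadjusted p below 0.05). Genes of hnRNPs and neuronal splicing regulators held 29 (18 tested, median 0.01, 2 higher and 1 lower at that p), and core spliceosome genes 24 (7 tested, median -0.07, 0 higher and 1 lower). mRNA export genes held 7 (3 tested, 0 at that p), and the genes of nonsense-mediated decay held 0. Over all retained introns tested the median was -0.10, with 3.07% higher and 6.28% lower at that p, and over all splicing events 4.39% and 5.84%. None of these introns passed the adjusted threshold.

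Celf1, a relative of Celf6, varied widely between libraries. Its intron of 3163 bases had a PSI of 0.120 and 0.225 in KO TRAP and 0.514, 0.398 and 0.150 in WT TRAP, against 0.584, 0.440 and 0.591 in KO input and 0.930, 0.652 and 0.144 in WT input. The groups overlapped (difference -2.81 ± 0.99, adjusted p = 0.399, limma). All TRAP values came from run 1, so the run covariate took up the mean of the run 2 values, KO input 4 (0.591) and WT input 5 (0.144). The fitted difference thus rests largely on run 1, where the difference in mean PSI was -0.370. Srsf5, an SR protein gene, averaged 0.0804 ± 0.0225 in TRAP (n = 10) and 0.0854 ± 0.0156 in input (n = 8), and Hnrnph1 averaged 0.0308 ± 0.00800 in TRAP (n = 10) and 0.0233 ± 0.0106 in input (n = 8).

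The level of the host genes was tested as well. Of 1127 host genes tested, 45 were higher and 27 lower in TRAP (edgeR quasi-likelihood test, adjusted p below 0.05), against 386 and 346 of 14261 genes in all (2.71% and 2.43%). The lower share was close to that of all genes and the higher share somewhat above it, and both counts moved with single libraries. The higher count was 26 without WT input 1 or WT input 5 and 27 without KO TRAP 2 or KO input 3, and the lower count was 16 without WT input 1 or WT input 5. Of the hnRNP and neuronal regulator list, 1 was higher and 9 lower of 84, among them Ddx17, an RNA helicase gene, at a log2 fold change of -1.17 ± 0.21 (edgeR, adjusted p = 0.000894), and Elavl3, a neuronal RNA-binding protein gene, with an adjusted p of 5.95e-05 (edgeR). Of 28 SR protein and kinase genes, 0 passed, and at an unadjusted p below 0.05 the 2 with the smallest p were Clk3 and Clk4, kinases of SR proteins.

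Knockout and wild-type TRAP libraries were compared to ask whether loss of CELF6 changes retention on serotonin-cell ribosomes. None of 556 retained introns passed the adjusted threshold, and none of all 1861 splicing events did (0%). At an unadjusted p below 0.05, 15 retained introns were higher and 19 lower in KO, which is 2.70% and 3.42%, against 2.79% and 3.92% of all events (6.72% in either direction). The median difference was -0.05, against -0.04 over all events. It was -0.01 without KO TRAP 1 or WT TRAP 3 and 0.00053 without WT TRAP 1, so its sign rested on WT TRAP 1. In mean PSI 16 introns differed by more than 0.1, 8 in each direction. All KO values lay above all WT values for 1.08% of retained introns and 1.5% of all events. They lay below all WT values for 2.7% and 2.36%.

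The smallest p was that of Fam70a (now Tmem255a), which encodes a transmembrane protein. Its intron of 384 bases at chrX:38224670-38225053 (mm10, minus strand) had a PSI of 0.0191, 0.0211, 0.0160, 0.0156 and 0.0221 in KO TRAP and 0.00872, 0.00294, 0.0106, 0.00925 and 0.00923 in WT TRAP. Every KO library lay above every WT library. The difference was 0.89 ± 0.14 (adjusted p = 0.0696, limma; exact permutation p = 0.00794, 2-sided, the smallest that 5 against 5 allows, not adjusted for choosing this intron). Of the 5 WT values, 4 lay below 0.01 and were set to that bound, which shrinks the difference and removes their spread from the SE. With the lower bound at 0.001 (and the upper one as far from 1) the difference was 1.33 ± 0.40 (adjusted p = 0.728, limma). With the 0.01 bound it passed the threshold among the introns with a value in all TRAP libraries (adjusted p = 0.0281, limma). In input the PSI was 0.0271 ± 0.0109 in KO (n = 5) and 0.0228 ± 0.00753 in WT (n = 3), which overlapped.

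Surf2 had 2 overlapping events that differ by 8 bases at the downstream edge. The intron of 1341 bases had a PSI of 0.0173, 0.0172, 0.0121, 0.0125 and 0.0119 in KO TRAP and 0.00587, 0.00647, 0.00464, 0.00516 and 0.00465 in WT TRAP. The groups did not overlap, and all WT values lay below 0.01, where PSI was held before the logit. In the authors' deposited table this was the only retained intron with a false discovery rate below 0.05, at 0.0368, while the limma test gave an adjusted p of 0.554. The bound shrinks this difference, so these 2 values are not on the same footing. With the lower bound at 0.001, the lowest adjusted p of any retained intron in this comparison was 0.105 (limma). In input it was 0.00507 to 0.124 in KO and 0.0336 and 0.101 in WT, with the high KO value in KO input 2 and the high WT value in WT input 2/3.

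Camk1, which encodes a calcium/calmodulin-dependent kinase, had 0.0555, 0.0375, 0.0292, 0.0508 and 0.0485 in KO TRAP and 0.0265, 0.00984, 0.00611 and 0.0122 in WT TRAP. The groups did not overlap, and the difference was 1.71 ± 0.37 (adjusted p = 0.323, limma). Ppp1cc, a catalytic subunit gene of protein phosphatase 1, had 2 events with 1 shared intron near full retention. The first averaged 0.979 ± 0.0181 in KO TRAP and 0.930 ± 0.0402 in WT TRAP (n = 5 each), with overlap and an adjusted p of 0.323 (limma). Few reads were counted for Ppp1cc as well, with a mean of 2.86 CPM in TRAP and 4.25 CPM in input.

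Lower values in KO were led by Enpp5 and Wars. Wars encodes the cytosolic tryptophanyl-tRNA synthetase, and its intron of 935 bases at the end of the gene had a PSI of 0.165, 0.213, 0.186 and 0.164 in KO TRAP and 0.313, 0.290, 0.305 and 0.274 in WT TRAP. The groups did not overlap, and the difference was -0.92 ± 0.16 (adjusted p = 0.232, limma). In input it was 0.329, 0.323 and 0.347 in KO and 0.345 and 0.267 in WT, which overlapped. Enpp5 had 2 overlapping introns, and that of 2280 bases averaged 0.520 ± 0.0877 in KO TRAP and 0.829 ± 0.229 in WT TRAP (n = 3 each), with overlap. WT TRAP 4 (0.564) was its only value from run 2, so the run covariate took that value up. The adjusted p of 0.136 (limma) thus compares KO TRAP 1 to 3 with WT TRAP 1 and 3. The exact permutation p over all the values was 0.3. Sel1l, a gene of endoplasmic reticulum degradation, had 0.0147, 0.00960 and 0.0193 in KO TRAP and 0.0564, 0.0418 and 0.0540 in WT TRAP, and Spna2 (Sptan1), an alpha spectrin gene, averaged 0.0210 ± 0.00683 in KO and 0.0399 ± 0.00716 in WT (n = 3 each). Their adjusted p were 0.468 and 0.529 (limma). For Spna2, KO TRAP 5 (0.0287) was likewise the only value from run 2, so its test compares KO TRAP 1 and 2 with WT TRAP 1 to 3.

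**Figure D5:**
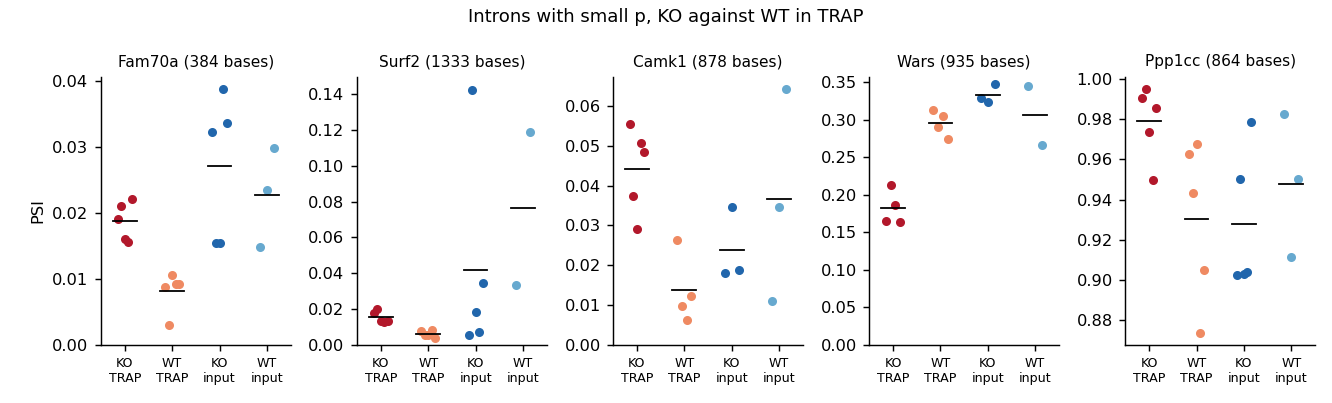
PSI (y axis; the Ppp1cc panel does not start at 0) of 5 introns in each library (points) of the 4 groups, with group means (lines). In TRAP the KO libraries lie above all WT libraries for Fam70a, Surf2 (the 1333-base intron) and Camk1 and below them for Wars, and overlap for Ppp1cc.

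In input, 0 of 361 retained introns passed, as did 0 of 1154 splicing events (0%). At an unadjusted p below 0.05, 8 were higher and 6 lower in KO (2.22% and 1.66%, against 1.82% and 1.73% of all events, 3.55% in either direction), and the lowest adjusted p was 0.958. Phb2, which encodes a prohibitin of mitochondria, had a PSI of 0.00789, 0.0196, 0.0121, 0.00725 and 0.0180 in KO input and 0.0627, 0.0525 and 0.0254 in WT input, without overlap. Sh3glb2, which encodes an endophilin, had 0.0316, 0.0377, 0.0641, 0.0572 and 0.0343 in KO input and 0.00649, 0.0124 and 0.0242 in WT input, without overlap. Neither held up against the number of introns compared, with an adjusted p of 0.958 for both (limma). Without overlap, 1.66% of retained introns were higher and 2.77% lower in KO input, against 1.39% and 2.08% of all events.

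Other introns led by p in input were those of Psmc4 (a proteasome ATPase), Spcs1 (a signal peptidase subunit), 1110032A03Rik and Prdx5 (a peroxiredoxin), which were higher on average in KO, and 0610037L13Rik (now Czib), Cdk16 (a kinase), Gas5 and Eif4a2, which were lower. Prdx5 was among the few introns at a middle level, with 0.371 ± 0.0323 in KO input (n = 5) and 0.311 ± 0.0250 in WT input (n = 3), and 0.380 ± 0.0263 in KO TRAP (n = 4) and 0.327 ± 0.0436 in WT TRAP (n = 5). It passed in neither kind of RNA.

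Whether the effect of genotype differed between the 2 kinds of RNA was tested as an interaction (KO minus WT in TRAP, minus the same in input). Of 337 retained introns 0 passed, and of 1048 splicing events 0 did (0%), with 14 retained introns above and 9 below 0 at an unadjusted p below 0.05 (4.15% and 2.67%, against 2.77% and 2.77% of all events, 5.53% in either direction). Sh3glb2 (-2.36 ± 0.65), Maged1 (1.25 ± 0.39) and Ufc1, an enzyme gene of UFM1 conjugation (1.59 ± 0.50), had the smallest p, with an adjusted p of 0.733 each (limma). Maged1 had 0.0477 ± 0.0176 in KO TRAP and 0.0254 ± 0.00522 in WT TRAP (n = 5 each), and 0.0327 ± 0.00980 in KO input (n = 5) and 0.0400 ± 0.00299 in WT input (n = 3).

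The authors' tables mark genes bound by CELF6 in crosslinking and immunoprecipitation (CLIP). Of the retained introns, 490 lie in marked genes and 1213 do not, with a median PSI of 0.0447 and 0.0492. In KO against WT in TRAP, 6 introns of marked genes were higher and 6 lower of 253 at an unadjusted p below 0.05, against 9 higher and 13 lower of 303 in other genes. Over all splicing events 2.79% were higher and 3.92% lower at that p, so neither set is read as set apart. The introns of marked genes were shorter (median 266.5 against 437 bases), and more of them could be tested (253 of 490, against 303 of 1213). The median difference was -0.04 in marked genes and -0.06 in the others.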

How the data were processed

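PSI values are fractions that the authors deposited, made with MISO and limited, per the labels' design text, to estimates whose credible interval spanned no more than 0.2. Counts per gene are whole numbers from featureCounts 1.4.6-p5 on mm10, per the file headers, after Trimmomatic and STAR, per the submitters' processing notes. P-values, false discovery rates and log2 odds differences of the authors' deposited tables served for comparison only. The 4 repeat runs and 1 library labelled an outlier were left out, and WT input 2 and 3 were averaged (PSI) or summed (counts), which left 18 libraries. That same-group libraries came from separate brains rests on the design text (5 per genotype). All 19 PSI columns were used.

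PSI was held between 0.01 and 0.99, so any difference that involves values outside these bounds is understated or lost. Of the 12973 retained intron values, 12.9% lay under the lower bound and 0.555% above the upper one. log2(PSI/(1-PSI)) was fitted for all splicing events with limma 3.58.1 (R 4.3.3), with sequencing run as a covariate (and genotype in TRAP against input), in events with values in at least 3 libraries per group, at an adjusted p of 0.05. Gene counts were tested with edgeR 4.0.16 (filterByExpr, TMM, quasi-likelihood), with DESeq2 1.42.0 as an alternative. Fits were tested on simulated data at both lower bounds, and the 0.01 bound shrank the differences put in. Same-numbered TRAP and input libraries of a genotype were taken as 1 brain, as the design text gives 5 brains per genotype, though their residuals correlated at only -0.0562 to 0.105. WT TRAP 2 and WT TRAP 3 were both put in 1 brain with WT input 2/3. Those 2 TRAP libraries were not alike, with a per-gene chi-square of 41.5. Same-numbered KO and WT input libraries correlated at 0.101, 0.167 and 0.137, over the 0.1 set for pairing. A differently numbered pair, KO input 3 with WT input 5, also did, at 0.102. The main KO against WT fit in input was unpaired, and the number entered only as a block in an alternative. Introns were named by smallest p (5 per direction, 3 for the interaction, up to 4 per list) and by highest and lowest PSI, and list genes by smallest p. Some introns that this rule names are not reported here. The members, lists and rules were chosen with earlier results of these data known. RefSeq positions and sequences are of GRCm38.p6, and 1186 of 1212 host symbols matched.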

Additional observations from a re-analysis of the deposited data

Results flagged for a closer look

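A library far from the others of its group was looked for in 145 groups of 4 to 10 values, and 19 were found, where chance gives about 1 in 20 groups of independent, normally distributed values. PSI values near 0 or 1 are skewed, so the rate that chance gives here is not known. KO input 2 accounted for 5 of the 19. Its median PSI over all introns was 0.0471, against 0.0307 to 0.0353 in the other 4 KO input libraries. It was also the highest for Surf2 (1333-base intron, 0.143, against 0.00530 to 0.0343), Map1lc3b (0.0169), Tspan7 (0.0209) and Clk3 (0.0924).

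The other high values were 0.0971 for Spcs1, 0.0139 for Tspan7 and 0.0137 for Clk3 in KO TRAP 5, 0.00999 for Map1lc3b and 0.206 for Srrm1 in KO TRAP 2, 0.00890 for Stk25 in KO TRAP 3, and 0.0121 for Map1lc3b and 0.0296 for Nono in WT TRAP 4. Low values were 0.0105 for Hmgn2 in KO TRAP 2, 0.00588 for Hmgn2 and 0.00294 for Fam70a in WT TRAP 2, 0.939 for Klhl22 in WT TRAP 5, 0.710 for the 2284-base Enpp5 intron in KO input 3, and 0.961 in KO input 4 for the intron of 1170 bases without a symbol.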

How the results depend on the processing

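The count of retained introns past the threshold was 0 in all 4 comparisons and stayed 0 under most alternatives. In TRAP against input it was 1 with a value in all libraries required (Eif4a2), 2 without KO input 2 and WT input 2/3, and 0 to 2 leaving out each library. In KO against WT in TRAP it was 1 with a value in all libraries required (Fam70a). The brain as a replicate block gave 0 of 710 in TRAP against input, and the number as a replicate block gave 0 of 547 in TRAP and 0 of 352 in input. The block changed no call.

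The median difference in TRAP against input was 0.0426 in run 2 alone, 0.00101 without the 2 input libraries and 0.132 with each library's median removed (50 higher and 20 lower at an unadjusted p below 0.05). Leaving out each library it ranged from -0.125 to -0.0409 there, from -0.0683 to 0.000535 in KO against WT in TRAP, from -0.0941 to 0.0707 in KO against WT in input, and from -0.159 to 0.101 for the difference of these. The last was -0.0423 without the 2 input libraries and -0.0368 without WT TRAP 2. The cause was not tested.

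Of 47 single results, 40 kept their sign. The other 7 changed it under some alternatives. With PSI held between 0.05 and 0.95, Chtop was -0.0701, Srrm1 -0.117 and Tpr 0.0217. Srrm1 was also -0.00789 on the PSI scale, -0.0433 with the block and -1.26 in WT alone. Tpr was 0.238 with the block and 0.0541 without the 2 input libraries. Prpf38a was 0.0716 in KO alone, 0.111 in run 2 alone, 0.187 without the 2 input libraries and 0.113 with medians removed, where Srsf5 was 0.0617. Without the run covariate Syf2 was -0.0765 and Nxf1 -0.0225. Leaving out each library, Chtop ranged from -0.0293 to 0.455, Srrm1 from -0.0433 to 0.993 (0.749 without WT TRAP 5), Tpr from -0.702 to 0.316 and Prpf38a from -0.237 to 0.127.

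Host genes higher in TRAP numbered 26 to 47 leaving out each library, and lower ones 16 to 33. Lower ones numbered 41 without the expression filter and 56 with DESeq2. Over introns with a value in every library the median PSI was 0.0200 in TRAP and 0.0231 in input, against 0.0356 and 0.0373 over all. Low values limit all comparisons, since a PSI near 0 rests on few intron reads, whose number the files do not give.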

Other observations

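Cytosolic ribosomal protein and translation factor genes held 47 retained introns in 30 genes, of which 45 could be tested in TRAP against input. Their median PSI was 0.0308, against 0.0477 for all retained introns, and 1 of the 47 was above 0.5. In TRAP against input 2 were higher and 3 lower at an unadjusted p below 0.05, with a median difference of -0.02. That is 5 of 45, against 10.2% of all splicing events and 9.35% of retained introns in either direction. In the gene level test 7 of 116 genes of this list were higher in TRAP and 0 lower (edgeR, adjusted p below 0.05), against 2.71% and 2.43% of all genes tested, among them Eef1b2, which encodes an elongation factor subunit, at 1.55 ± 0.26 (log2 fold change ± SE, adjusted p = 0.000394).

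Genes of synaptic vesicles, ion channels and receptors held 23 retained introns in 15 genes, with a median PSI of 0.0424, and 0 of 14 tested had an unadjusted p below 0.05 in TRAP against input. Chromatin genes held 28 in 20 genes, with a median PSI of 0.0469, 0 higher and 1 lower of 13 tested at that p.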
